A study of Mus musculus with 6 samples.

Results

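The genes described here are 10 genes of V(D)J recombination and non-homologous end joining, taken by their gene symbols: Rag1, Rag2, Dntt, Prkdc, Xrcc5, Xrcc6, Dclre1c, Xrcc4, Lig4 and Nhej1. They are 10 of the 37315 genes with an abundance value and of the 19402 genes with allelic counts. All 10 passed the filters of both tests, a mean of at least 1 TPM (an abundance corrected for transcript length and library size) and at least 20 allelic counts in each library. The study sequenced RNA from 3 lines of immortalised mouse B cells, which the file headers call Abelson clones. The labels give the sex of Abl.3 as male and of the other lines as female, and each line is 1 clone from an F1 mouse of the cross 129S1/SvImJ x CAST/EiJ. All lines were controls grown with 1% DMSO, a solvent, and live cells were taken on day 2 from a density gradient. Each line had 2 libraries, which are repeats of library preparation, so that p-values measure the spread between preparations and not between cultures or animals.

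V(D)J recombination joins separate gene segments of the antigen receptor loci in developing lymphocytes. The RAG1 and RAG2 proteins together form the endonuclease that cuts beside the segments, leaving hairpin-sealed coding ends. The Ku heterodimer (Xrcc5 and Xrcc6) binds the broken ends and recruits the kinase encoded by Prkdc, the nuclease Artemis (Dclre1c) opens the hairpins, terminal transferase (Dntt) adds untemplated nucleotides, and a ligase complex of the products of Xrcc4, Lig4 and Nhej1 seals the joint. Abelson-transformed lines resemble early B-lineage cells and are widely used to study this reaction.

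The labelled cell type was checked against marker genes. All 12 of the early B lineage markers, Rag1 and Dntt among them, were at 1 TPM or more in every library, and their summed level was 12626 to 14025 TPM. The sum hides differences between lines in single markers. Pax5 (56.18 and 63.95 TPM) and Cd93 (8.87 and 9.14 TPM) were lowest in Abl.3, while Igll1 was highest there (5027 and 4508.5 TPM). Summed T lineage markers reached 0.57 to 0.69 TPM in Abl.2, 1.04 to 1.11 TPM in Abl.3 and 2.99 to 3.05 TPM in Abl.4, nearly all of it Tcf7, with Cd3g, Cd4, Cd8b1, Trac and Thy1 listed at 0 in every library. Summed myeloid markers reached 159.0 to 193.2 TPM in Abl.2, and 74.98 to 97.2 TPM and 77.9 to 89.4 TPM in Abl.3 and Abl.4. Of these 7 genes only Lyz2 was at 1 TPM or more in every library, and Elane, Ly6g and Cd14 were listed at 0. Itgam, another of the 7, was instead highest in Abl.4, at 6.89 and 6.74 TPM against 0.35 to 0.97 TPM in the other lines. Allelic counts totalled 18362319 to 26881211 per library, while the TPM values keep no depth.

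Rag1 and Rag2 lie next to each other on chromosome 2 (GRCm38) and point towards each other. Rag1 is at 101638282 to 101649501 on the minus strand and Rag2 at 101624718 to 101632529 on the plus strand, with 5753 bases between their ends. Xrcc5 is on chromosome 1 at 72307421 to 72394952 on the plus strand. Rag1 and Rag2 had opposite orders of abundance over the lines, and Xrcc5 was read almost wholly from 1 allele in 1 line. The 250 bases before the RefSeq start of these 3 genes are therefore shown. They are at chr2:101649533-101649782 (minus strand), chr2:101624462-101624711 (plus strand) and chr1:72307171-72307420 (plus strand) of GRCm38.p6, the genome of a reference strain that is neither parent of the cross. Each is written from 5′ to 3′ in lower case, and capitals mark matches on either strand to the E box CANNTG (which includes the motif CAGGTG), the forkhead motif GTAAACA, the GC box GGGCGG, the motif CCAAT, the TATA box TATAAA or the Ets-type motif GGAAGT.
Rag1: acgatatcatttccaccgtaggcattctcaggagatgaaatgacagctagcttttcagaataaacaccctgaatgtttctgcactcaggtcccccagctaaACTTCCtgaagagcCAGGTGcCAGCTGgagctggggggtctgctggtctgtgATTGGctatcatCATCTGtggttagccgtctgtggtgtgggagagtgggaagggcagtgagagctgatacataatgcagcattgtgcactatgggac
Rag2: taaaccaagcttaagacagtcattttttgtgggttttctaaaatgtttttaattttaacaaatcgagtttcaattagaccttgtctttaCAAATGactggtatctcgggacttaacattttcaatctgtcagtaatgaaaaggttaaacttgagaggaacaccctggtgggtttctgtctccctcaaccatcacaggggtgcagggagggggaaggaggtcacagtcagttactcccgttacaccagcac
Xrcc5: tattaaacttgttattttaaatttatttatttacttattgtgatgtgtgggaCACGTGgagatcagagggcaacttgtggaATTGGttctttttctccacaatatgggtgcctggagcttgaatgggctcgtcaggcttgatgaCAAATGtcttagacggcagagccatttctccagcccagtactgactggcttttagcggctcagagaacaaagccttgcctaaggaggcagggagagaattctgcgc
The Rag1 stretch held 3 matches to the E box CANNTG, 1 of which was also a CAGGTG, with 1 match each to CCAAT and to the motif GGAAGT. The Rag2 stretch held 1 E box and no other match, and that of Xrcc5 held 2 E boxes and 1 CCAAT. Of 32851 mouse promoter stretches of the same length, 66.2% held the E box, 17.2% its form CAGGTG, 33.8% the motif CCAAT and 19.7% the motif GGAAGT. The GC box GGGCGG, held by 32.7%, was found for Nhej1, Dclre1c, Xrcc4, Xrcc6 and 1 of the 2 Lig4 promoters, and not for Rag1, Rag2, Dntt or Xrcc5. Promoter stretches were matched for 9 of the 10 genes, all but Prkdc. GC content was 50.8% for Rag1, 41.2% for Rag2, 41.6% for Dntt and 44.8% for Xrcc5. It was 68.0% for Xrcc4, 65.2% for Xrcc6, 70.0% and 68.4% for Lig4, 54.8% for Dclre1c and 48.4% for Nhej1, against a median of 52.4% over all stretches. The Xrcc6 stretch (chr15:82016119-82016368) lies inside the gene span given below and not before its start. So does the Lig4 stretch with 68.4% (chr8:9976312-9976561).

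Abundance was compared between the lines for each role in the reaction. Of the 10 genes, 5 differed in Abl.2 minus Abl.3 at an adjusted p under 0.05, 3 in Abl.2 minus Abl.4 and 4 in Abl.3 minus Abl.4 (limma on log2(TPM + 1), Benjamini-Hochberg over 11003 genes). The same call was made for 39.8%, 33.5% and 38.1% of all genes tested, so the shares of members called lay near the background. In the first pair 3 members were higher and 2 lower, against 25.9% and 14.0% of all genes. In the second 2 were higher and 1 lower, against 15.0% and 18.4%, and in the last 2 were higher and 2 lower, against 11.3% and 26.8%. The differences fell on the RAG genes, Dntt and Xrcc5, with a small one for Xrcc6. None of Prkdc, Dclre1c, Xrcc4, Lig4 and Nhej1 passed the threshold in any pair. The median difference over all genes was 0.10 for Abl.2 minus Abl.3, -0.03 for Abl.2 minus Abl.4 and -0.15 for Abl.3 minus Abl.4 on the log2 scale. In bulk RNA, fewer cells with a transcript and less transcript per cell cannot be told apart.

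**Figure D1:**
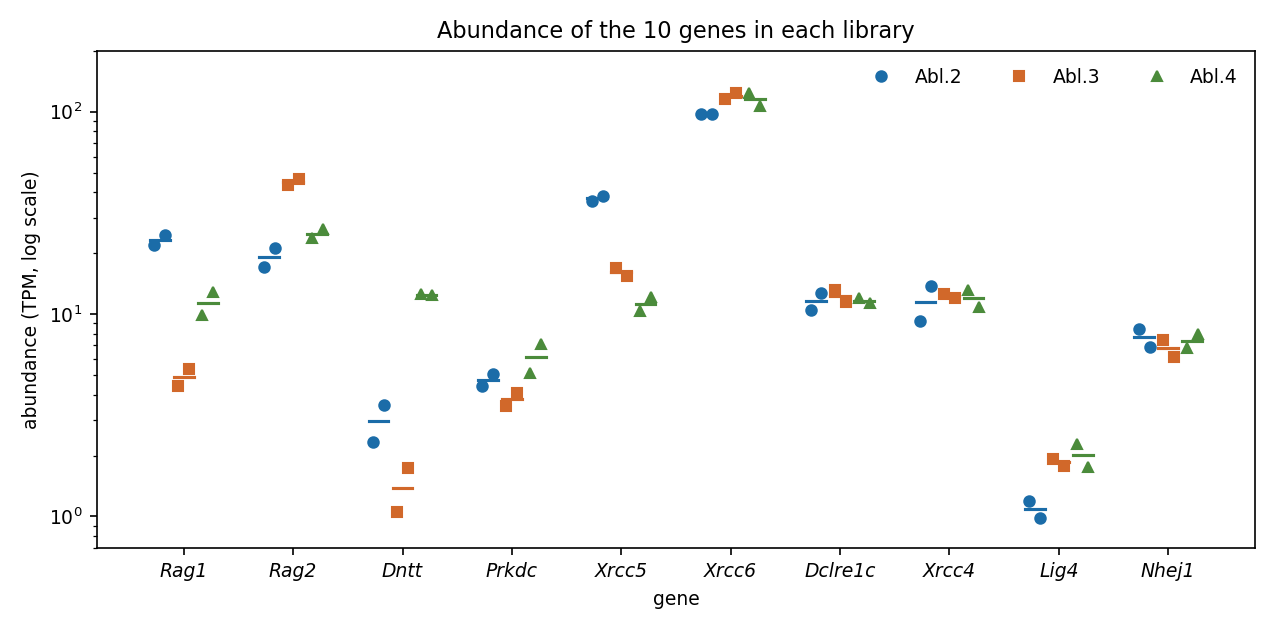
Abundance (TPM, log scale) of the 10 genes in each library, with points for libraries, a bar for the mean of each line, and circles, squares and triangles for Abl.2, Abl.3 and Abl.4. Rag1 and Xrcc5 are highest in Abl.2, Rag2 in Abl.3 and Dntt in Abl.4, while the libraries of the lines lie close together for Dclre1c, Xrcc4 and Nhej1.

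Rag1, which carries the active site of the endonuclease, was at 21.96 and 24.64 TPM in Abl.2, at 4.39 and 5.34 TPM in Abl.3 and at 9.84 and 12.9 TPM in Abl.4. Its libraries did not overlap between lines, and Abl.2 was highest and Abl.3 lowest. Rag1 was higher in Abl.2 than in Abl.3 by 2.05 (SE 0.16, adjusted p = 0.000236) and than in Abl.4 by 0.98 (SE 0.16, adjusted p = 0.00506) on the log2(TPM + 1) scale. It was lower in Abl.3 than in Abl.4 by 1.07 (log2 difference -1.07, SE 0.16, adjusted p = 0.00373). Without Abl.2 replicate 2, the adjusted p between Abl.2 and Abl.4 was 0.0506. Summed myeloid markers, given above, were also highest in Abl.2, nearly all from Lyz2. Of the early B lineage markers, Pax5 and Cd93 were lowest in Abl.3, as Rag1 was, while Igll1 was highest there. The part of these markers in the Rag1 result was not tested.

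Rag2, the obligate partner of Rag1, had another order of lines. It was at 17.02 and 21.21 TPM in Abl.2, at 43.41 and 46.47 TPM in Abl.3 and at 23.64 and 26.27 TPM in Abl.4. Abl.3, which had the least Rag1, had the most Rag2, and no library of another line reached it. The log2 difference was -1.20 between Abl.2 and Abl.3 (SE 0.13, adjusted p = 0.000771) and 0.82 between Abl.3 and Abl.4 (SE 0.13, adjusted p = 0.00396). Abl.2 and Abl.4 differed by -0.37 (SE 0.13, adjusted p = 0.0659), which missed the threshold but passed with a block for replicate number (limma, adjusted p = 0.02). It was -0.22 without Abl.2 replicate 1 (adjusted p = 0.304) and -0.17 in summed allelic counts (edgeR, adjusted p = 0.333).

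The balance of the RAG genes therefore differed between clones. The ratio of Rag1 to Rag2 in TPM was 1.29 and 1.16 in the libraries of Abl.2, 0.101 and 0.115 in Abl.3 and 0.416 and 0.491 in Abl.4. Only in Abl.2 did Rag1 exceed Rag2, and the ratios of the lines did not overlap. No test was run on the ratio itself. Summed over both alleles, the allelic counts gave the same order of lines, with Rag1 at 270.0 and 309.7 CPM (allelic counts scaled to a common library total) in Abl.2, 68.7 and 87.7 in Abl.3 and 130.7 and 163.8 in Abl.4. Rag2 was at 36.6 and 41.7 CPM in Abl.2, 84.8 and 100.9 in Abl.3 and 44.9 and 43.0 in Abl.4. CPM are not scaled to length or to the number of SNPs in a gene and are compared between lines only.

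**Figure D2:**
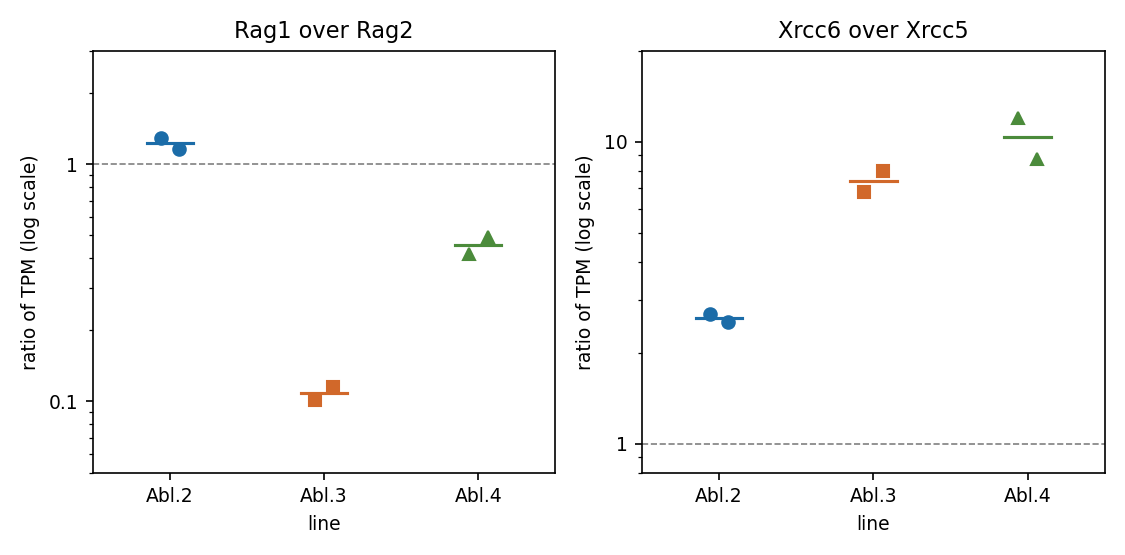
Ratio of TPM (log scale) of Rag1 to Rag2 (left) and of Xrcc6 to Xrcc5 (right) in each library, with a bar for the mean of each line and a dashed line at equal TPM. Rag1 exceeds Rag2 in the libraries of Abl.2 alone, and the excess of Xrcc6 over Xrcc5 is smallest there, at 2.68 and 2.53.

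The genes around the RAG locus were taken from a fixed list of 4 neighbours, of which 3 could be tested. Iftap is not a separate locus, since it runs from 101560781 to 101649532 on the strand of Rag1 and encloses both RAG genes. Its start lies directly beside the Rag1 promoter stretch shown above. Iftap, listed in the tables as B230118H07Rik, averaged 101.0 ± 14.6, 44.0 ± 12.4 and 60.03 ± 14.9 TPM (SD, n = 2) in Abl.2, Abl.3 and Abl.4, and differed between Abl.2 and Abl.3 (adjusted p = 0.00872). Traf6, an adaptor in receptor signalling, averaged 50.5, 28.7 and 45.6 TPM. It was lower in Abl.3 than in Abl.2 (adjusted p = 0.000581) and than in Abl.4 (adjusted p = 0.00147). Commd9 did not pass in any pair, and Prr5l was at a mean of 0 to 0.02 TPM. Rag1, Iftap and Traf6 thus had their lowest means in Abl.3, where Rag2 was highest, while Commd9 had its lowest in Abl.4 (49.6 TPM). Over all genes, 25.9% were called higher and 14.0% lower in Abl.2 than in Abl.3. In Abl.3 minus Abl.4, 11.3% were called higher and 26.8% lower. In GENCODE M21 the exons of B230118H07Rik cover 80 of the 6608 exonic bases of Rag1 on the same strand and 208 of the 3424 of Rag2 on the opposite strand. How such shared bases were counted is not given in the sources used here.

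Dntt (chromosome 19, 41029275 to 41059523, plus strand) had the widest range of the 10 genes between lines as a ratio of the highest to the lowest line mean, at 8.97. It was at 2.34 and 3.57 TPM in Abl.2, at 1.05 and 1.73 TPM in Abl.3 and at 12.53 and 12.4 TPM in Abl.4. The libraries of Abl.4 lay far above all others, and those of Abl.3 lay below those of Abl.2. The log2 difference was -1.79 for Abl.2 minus Abl.4 (SE 0.22, adjusted p = 0.00138) and -2.51 for Abl.3 minus Abl.4 (SE 0.22, adjusted p = 0.000374). The smaller one, 0.72 for Abl.2 minus Abl.3 (SE 0.22, adjusted p = 0.0375), was lost without the filter on low values (adjusted p = 0.0933) and without any 1 of 4 libraries (Abl.2 replicate 2, Abl.3 replicate 1 or either library of Abl.4, adjusted p = 0.0681 to 0.187). Summed markers of later B-lineage stages were also higher in Abl.4, at 101.1 to 115.9 TPM against 31.7 to 36.6 TPM in Abl.2 and 29.1 to 30.6 TPM in Abl.3. Most of this sum was Cd22, at 84.68 to 100.03 TPM in Abl.4 and 18.28 to 23.3 TPM in the other lines. Ms4a1 was instead highest in Abl.3, at 6.09 and 6.19 TPM, and Sdc1 overlapped between Abl.4 and Abl.2. Of the 5 such markers in the table, Cd22 and Sdc1 were at 1 TPM or more in every library and none was at 0 in all. Summed T lineage markers and Itgam, given above, were also highest in Abl.4. The part of these markers in the Dntt result was not tested.

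**Figure D3:**
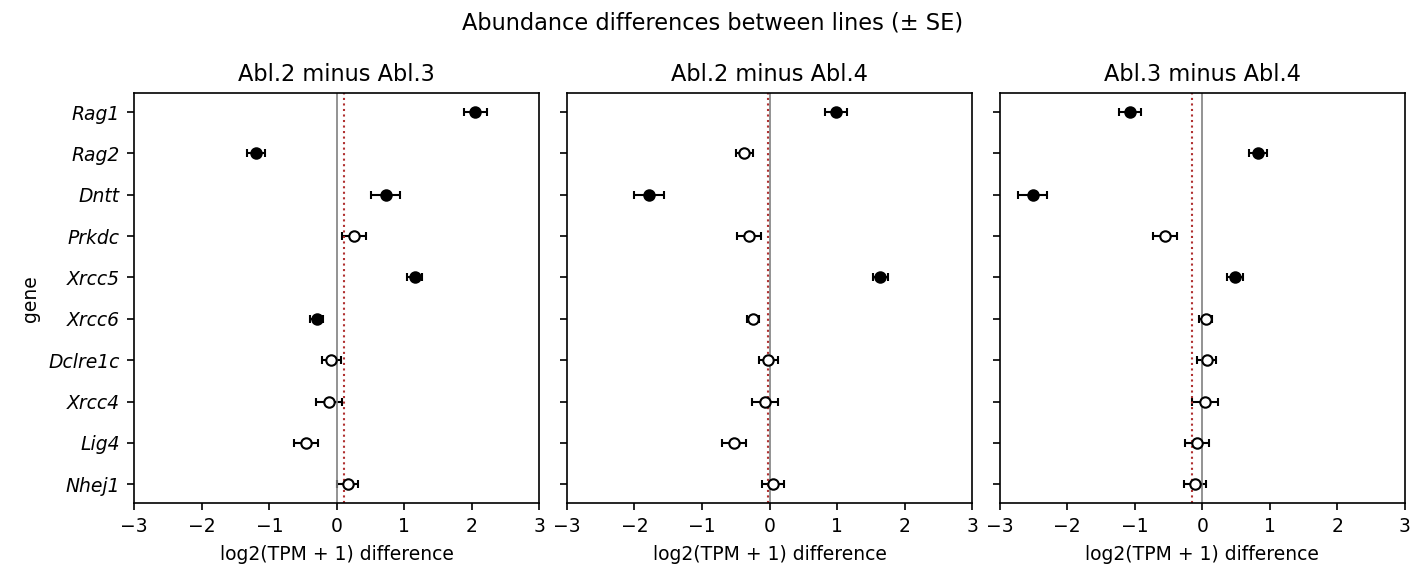
Differences in log2(TPM + 1) between lines for the 10 genes, with bars of 1 SE, filled points for an adjusted p under 0.05 and a dotted line at the median of all genes. Rag1 and Rag2 lie on opposite sides of 0 in each pair, and Dntt in Abl.4 gives the lowest values, -1.79 and -2.51.

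The Ku subunits bind DNA ends as a heterodimer, and their transcripts did not vary together. Xrcc5, which encodes Ku80, was at 36.14 and 38.35 TPM in Abl.2, at 16.88 and 15.5 TPM in Abl.3 and at 10.39 and 12.15 TPM in Abl.4. Every library of Abl.2 was above all others, and those of Abl.4 were the lowest. The log2 difference was 1.15 between Abl.2 and Abl.3 (SE 0.11, adjusted p = 0.000573) and 1.64 between Abl.2 and Abl.4 (SE 0.11, adjusted p = 0.00013). Abl.3 minus Abl.4 was 0.49 (SE 0.11, adjusted p = 0.0172), a call lost without Abl.3 replicate 1, Abl.3 replicate 2 or Abl.4 replicate 1 (adjusted p = 0.0572 to 0.0996). With quantile normalisation it was 0.76 (adjusted p = 0.00315). As for Rag1, the myeloid sum was highest in Abl.2, while Itgam of that list was highest in Abl.4, where Xrcc5 was lowest. The part of these markers in the Xrcc5 result was not tested.

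Xrcc6 (chromosome 15, 81987835 to 82040085, plus strand), which encodes Ku70, was the most abundant of the 10 genes in every library. It was at 96.93 and 97.13 TPM in Abl.2, at 115.15 and 123.73 TPM in Abl.3 and at 124.34 and 106.68 TPM in Abl.4. Abl.2 was lowest, while Abl.3 and Abl.4 overlapped. The difference between Abl.2 and Abl.3 was -0.30 (SE 0.095, adjusted p = 0.0482), and it did not pass without the filter on low values (adjusted p = 0.0778) or without any 1 library of these lines (adjusted p = 0.1 to 0.211). Abl.2 minus Abl.4 was -0.25 (SE 0.095, adjusted p = 0.0945). It was -0.14 without Abl.4 replicate 1 (adjusted p = 0.261) and in summed allelic counts (edgeR, adjusted p = 0.337), and -0.35 without Abl.4 replicate 2 (adjusted p = 0.0411). The ratio of Xrcc6 to Xrcc5 was 2.68 and 2.53 in Abl.2, 6.82 and 7.98 in Abl.3 and 12.0 and 8.78 in Abl.4.

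None of the genes of the kinase, nuclease and ligase steps passed the threshold in abundance between lines. Prkdc (chromosome 16, 15637866 to 15842235, plus strand), the DNA-dependent protein kinase, was at 4.39 and 5.04 TPM in Abl.2, 3.52 and 4.09 TPM in Abl.3 and 5.12 and 7.09 TPM in Abl.4. Abl.3 was lowest and Abl.4 highest. Their log2 difference was -0.55 (SE 0.18, adjusted p = 0.0522), which just missed the threshold but passed with a block for replicate number (limma, adjusted p = 0.0232). It passed in summed allelic counts (edgeR, adjusted p = 0.0102) and without Abl.4 replicate 1 (adjusted p = 0.0302), and it shrank to -0.25 with quantile normalisation (adjusted p = 0.299) and to -0.35 without Abl.4 replicate 2 (adjusted p = 0.178). Dclre1c (chromosome 2, 3424131 to 3464130, plus strand), the hairpin-opening nuclease, ranged from 10.42 to 13.12 TPM over all libraries, and all lines overlapped.

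In the ligase complex, Xrcc4 (chromosome 13, 89774027 to 90089608, minus strand), the scaffold of the complex, ranged from 9.23 to 13.8 TPM. Nhej1 (chromosome 1, 74967139 to 75125200, minus strand), which encodes the Xrcc4-like factor, ranged from 6.13 to 8.48 TPM. For both genes the line means differed by less than the libraries of Abl.2 did from each other. Lig4 (chromosome 8, 9969049 to 9977686, minus strand), the ligase itself, was at 1.19 and 0.98 TPM in Abl.2, 1.93 and 1.77 TPM in Abl.3 and 2.27 and 1.75 TPM in Abl.4, and was the least abundant of the 10 genes in Abl.2 and Abl.4. In Abl.3 Dntt was lower. Lig4 was below the other lines in both libraries of Abl.2, with log2 differences of -0.45 (SE 0.18, adjusted p = 0.0905) and -0.53 (SE 0.18, adjusted p = 0.066). The summed allelic counts of Lig4 gave -0.92 (edgeR, adjusted p = 0.00343) and -0.91 (adjusted p = 0.00415), in a fit that differed from the TPM fit in data, model and gene filter at once. With a pseudocount of 0.1 the Lig4 differences were -0.72 (adjusted p = 0.0822) and -0.83 (adjusted p = 0.0637), and with quantile normalisation Abl.2 minus Abl.4 was -0.24 (adjusted p = 0.363). The log2(TPM + 1) scale understates differences at such low levels.

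Allelic expression was examined next, as the share of allelic counts from the maternal allele. In each library 124 to 8324 counts lay behind a share, Dntt in Abl.3 having the fewest. Unequal output of the alleles was called for 5, 4 and 6 of the 10 genes in Abl.2, Abl.3 and Abl.4 by edgeR's quasi-likelihood test, where 49.1%, 45.1% and 39.9% of 8702 genes were called. A difference in share between lines was called for 2 genes in Abl.2 minus Abl.3, against 28.4% of all genes, for 1 in Abl.2 minus Abl.4, against 22.3%, and for 1 in Abl.3 minus Abl.4, against 16.5%. Xrcc5 was the gene called in all of these pairs, and Xrcc6 the other.

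**Figure D4:**
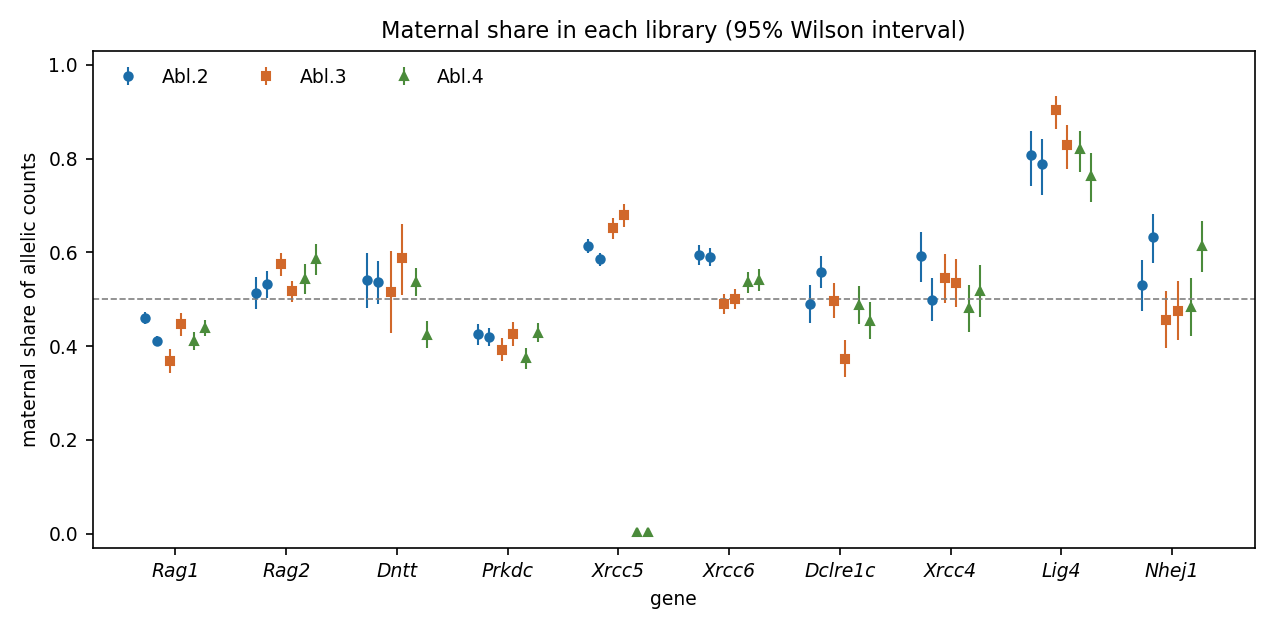
Maternal share of allelic counts of the 10 genes in each library, with 95% Wilson intervals that cover counting error only and a dashed line at equal counts. Xrcc5 is near 0 in both libraries of Abl.4 and above 0.5 in the other lines, and Lig4 lies at 0.763 or above in every library.

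Xrcc5 was read almost wholly from the paternal allele in Abl.4. Its maternal share was 0.614 and 0.586 in Abl.2 and 0.652 and 0.679 in Abl.3. In Abl.4 the maternal allele gave 3 of 1014 counts (0.296%, 95% Wilson interval 0.101 to 0.866%) and 3 of 1059 counts (0.283%, 0.0964 to 0.830%). Abl.2 and Abl.3 lay on the maternal side in every library and Abl.4 on the paternal side in both. The log2 ratio of maternal to paternal counts differed by 8.95 between Abl.2 and Abl.4 (edgeR, adjusted p = 1.49e-10). Between Abl.3 and Abl.4 it differed by 9.36 (adjusted p = 2.43e-10). These fitted sizes depend on the prior count, because the maternal allele had only 3 counts per library, and they are no bound. For the same reason no SE is given for them. In the authors' deposited table, the fraction of maternal counts in Abl.4 was 0, with limits of 0 and 0.03.

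Taken allele by allele, the maternal transcript of Xrcc5 was at 100.2 and 106.7 allelic CPM in Abl.2, 57.7 and 51.2 in Abl.3 and 0.150 in each library of Abl.4. The paternal transcript was at 63.1 and 75.5 CPM in Abl.2, 30.8 and 24.2 in Abl.3 and 50.5 and 52.8 in Abl.4. The paternal allele of Abl.4 thus lay between those of the other lines, and the line with no more than a trace of maternal counts also had the lowest total abundance. Abl.2 exceeded Abl.3 for each allele in every library. Between these 2 lines the maternal excess was larger in Abl.3, by a log2 ratio difference of -0.41 for Abl.2 minus Abl.3 (SE 0.12, adjusted p = 0.0271). That call was lost with DESeq2 (adjusted p = 0.121) and without Abl.2 replicate 2 (adjusted p = 0.226) or Abl.3 replicate 2 (adjusted p = 0.162). Over the tested genes of chromosome 1, Abl.2, Abl.3 and Abl.4 had median maternal shares of 0.501, 0.449 and 0.504.

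**Figure D5:**
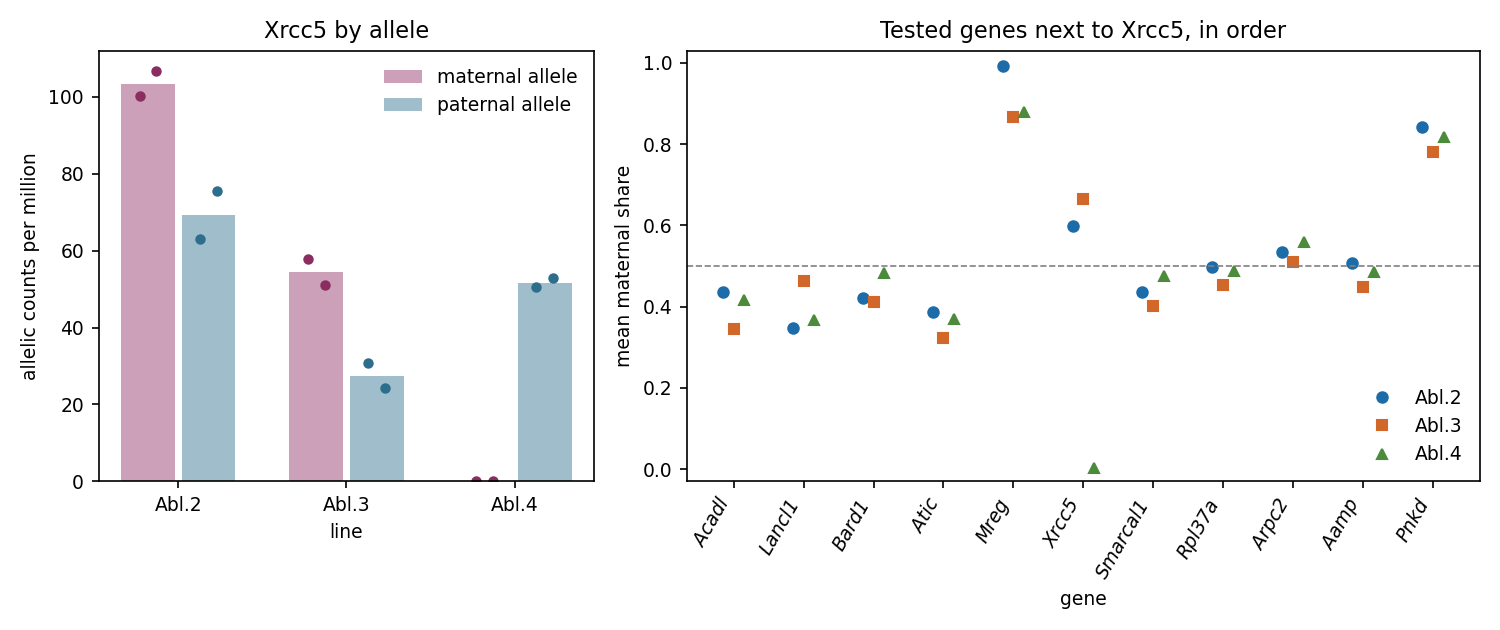
Left, Xrcc5 allelic CPM by allele, with bars for the mean of a line and points for its libraries. Right, the mean maternal share in each line of Xrcc5 and of the 5 nearest tested genes on each side, in chromosomal order. Xrcc5 in Abl.4 is the only point near 0, and its neighbours lie between 0.368 and 0.879 in that line.

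The genes beside Xrcc5 did not share its pattern. The 5 nearest tested genes on each side, from Acadl to Pnkd, ranged in mean maternal share from 0.368 to 0.879 in Abl.4. None was at 0.1 or less in that line. The nearest, Mreg, was at 0.992, 0.866 and 0.879 in Abl.2, Abl.3 and Abl.4, and Smarcal1 on the other side was at 0.437, 0.402 and 0.475. Nhej1, 2.57 Mb further along the chromosome, had a mean share of 0.549 ± 0.092 in Abl.4 (SD, n = 2). Among 8480 autosomal genes tested, 60 had a share of 0.01 or less in Abl.4, and 7 of these lay between 0.3 and 0.7 in both other lines. They were Tmem14a and Kifap3 on chromosome 1 besides Xrcc5, and Sptb, Ercc6, Amdhd2 and Abhd14a on other chromosomes. Ercc6 encodes a protein of transcription-coupled DNA repair.

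Xrcc6 showed a smaller allelic difference. Its maternal share was 0.595 and 0.590 in Abl.2, 0.490 and 0.5 in Abl.3 and 0.536 and 0.541 in Abl.4, with no overlap between lines. Abl.2 exceeded Abl.3 by a log2 ratio difference of 0.57 (SE 0.11, adjusted p = 0.00239). Abl.2 minus Abl.4 was 0.32 (SE 0.11, adjusted p = 0.0753), or 0.18 with allele totals as library sizes (adjusted p = 0.29). Within lines the maternal excess of Xrcc6 was called in Abl.2 (log2 ratio 0.54, adjusted p = 0.000185) and Abl.4 (0.22, adjusted p = 0.0465). The Abl.4 call was lost with DESeq2 (adjusted p = 0.12), with no minimum of counts (adjusted p = 0.0727) and without any 1 of the 6 libraries (adjusted p = 0.0576 to 0.207).

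Lig4 leaned to the maternal allele in all lines. Its maternal share was 0.807 and 0.788 in Abl.2, 0.903 and 0.829 in Abl.3 and 0.820 and 0.763 in Abl.4, from 176 to 294 counts a library. Abl.3 lay above the other lines, which overlapped. The log2 ratio of maternal to paternal counts was 1.97 in Abl.2 (SE 0.28, adjusted p = 0.000166), 2.72 in Abl.3 (SE 0.28, adjusted p = 2.25e-05) and 1.93 in Abl.4 (SE 0.26, adjusted p = 0.000192). No difference between lines passed the threshold, the log2 ratio of Abl.3 minus Abl.4 being 0.79 (SE 0.39, adjusted p = 0.232). This value was 0.34 without Abl.3 replicate 1 (adjusted p = 0.706) and 1.28 without Abl.3 replicate 2 (adjusted p = 0.115).

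Rag1 and Prkdc leaned to the paternal allele in every library. The maternal share of Rag1 was 0.461 and 0.412 in Abl.2, 0.369 and 0.446 in Abl.3 and 0.410 and 0.438 in Abl.4. That of Prkdc was 0.425 and 0.420, 0.393 and 0.426, and 0.374 and 0.428 in the same order. The lines overlapped for both genes, and no difference between lines was called. The paternal excess passed in each line for Rag1 (adjusted p = 0.00375 to 0.0107) and for Prkdc (adjusted p = 0.000996 to 0.00328). For Rag1 it was lost in each line without 1 of its libraries, which were Abl.2 replicate 2 (adjusted p = 0.267), Abl.3 replicate 1 (adjusted p = 0.113) and Abl.4 replicate 1 (adjusted p = 0.0811). For Prkdc it was lost without Abl.2 replicate 2 in Abl.2 (adjusted p = 0.0504) and without Abl.3 replicate 1 in Abl.3 (adjusted p = 0.0571).

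Rag2, 5753 bases from Rag1, lay on the other side of equality. Its maternal share was 0.513 and 0.532 in Abl.2, 0.574 and 0.517 in Abl.3 and 0.543 and 0.585 in Abl.4. All libraries were above 0.5, and Abl.3 overlapped both other lines. The maternal excess was called in Abl.4 (log2 ratio 0.37, SE 0.12, adjusted p = 0.0331), and this call was lost with DESeq2 (adjusted p = 0.0991) and without Abl.4 replicate 2 (adjusted p = 0.288). On each allele, Rag1 was lowest and Rag2 highest in Abl.3, while the libraries of Abl.2 and Abl.4 overlapped for paternal Rag2. Maternal Rag1 was at 126.0, 32.3 and 62.7 mean CPM in Abl.2, Abl.3 and Abl.4 and paternal Rag1 at 163.8, 46.0 and 84.5. Maternal Rag2 was at 20.5, 50.4 and 24.8 and paternal Rag2 at 18.7, 42.4 and 19.2.

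Dntt was read from both alleles at each level of abundance. Its maternal share was 0.540 and 0.537 in Abl.2, 0.516 and 0.587 in Abl.3 and 0.537 and 0.425 in Abl.4, and no imbalance or difference was called. Both alleles were highest in Abl.4, where the maternal was at 25.9 ± 3.85 and the paternal at 28.0 ± 4.74 CPM (SD, n = 2), against 7.74 ± 1.79 and 6.64 ± 1.604 in Abl.2 and 4.09 ± 1.23 and 3.25 ± 0.33 in Abl.3. Shares of Dclre1c ranged from 0.373 to 0.559, of Xrcc4 from 0.480 to 0.592 and of Nhej1 from 0.456 to 0.632 over all libraries. None of these 3 genes passed a test of imbalance or difference with all libraries. For Dclre1c the libraries of Abl.3 stood apart at 0.497 and 0.373, and without replicate 1 its imbalance in Abl.3 (adjusted p = 0.0353) and its difference between Abl.2 and Abl.3 (adjusted p = 0.0452) passed. Without replicate 2 they did not (adjusted p = 0.965 and 0.752). The exons of Dclre1c, Xrcc6 and Xrcc4 overlap those of Suv39h2, Desi1 and Tmem167 on the opposite strand, by 357 of 9316, 344 of 4476 and 112 of 4213 bases. Whether strand was used in counting is not given in the sources used here.

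In the authors' deposited table, the interval of the maternal fraction excluded 0.5 for 5 of the 10 genes in Abl.2 and 4 in each of the other lines. The share over all genes was not counted for these intervals, so the counts do not set the members apart from other genes. Rag1, Prkdc, Xrcc5 and Lig4 did so in every line, and Xrcc6 in Abl.2. Rag2 and Xrcc6 in Abl.4, called by edgeR, were not among them.

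Other genes of the pathway were taken from fixed lists, and their counts are to be read against the shares of all genes called. These were 25.9% higher and 14.0% lower in Abl.2 minus Abl.3, 15.0% and 18.4% in Abl.2 minus Abl.4, and 11.3% and 26.8% in Abl.3 minus Abl.4. The median differences over all genes were 0.10, -0.03 and -0.15 in the same pairs. The lists were counted only in the main limma fit. With quantile normalisation, the share of calls over all genes that were higher in Abl.3 minus Abl.4 went from 29.8% to 52%. Of 14 genes of break signalling and end protection tested, 2 were higher and 1 lower in Abl.2 than in Abl.3, 1 higher and 4 lower in Abl.2 than in Abl.4, and 0 higher and 6 lower in Abl.3 than in Abl.4. Their median differences were 0.08, -0.13 and -0.29. Trp53bp1, which shields ends from resection, averaged 29.6, 14.7 and 16.5 TPM in Abl.2, Abl.3 and Abl.4. Chek2, a checkpoint kinase, averaged 7.995, 10.6 and 13.8 TPM. Shld1, a shieldin subunit, was at 11.8, 6.65 and 10.3 TPM. Its mean maternal share was 0 in Abl.3 against 0.403 in Abl.2 and 0.427 in Abl.4. It was not alone, as Nbn and Mad2l2 of this list were at 0.997 and 0.996 in Abl.2, against 0.398 to 0.490 in the other lines. Of 12 genes of the list with an allelic test, 3 differed in share in each pair (28.4%, 22.3% and 16.5% of all genes).

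Of 13 genes of end processing and gap filling, 1 was higher and 1 lower in Abl.2 than in Abl.3, 1 higher and 3 lower in Abl.2 than in Abl.4, and 0 higher and 2 lower in Abl.3 than in Abl.4. Median differences were -0.18, -0.20 and 0.09, beside 0.10, -0.03 and -0.15 over all genes. Polm, a polymerase that fills gaps at V(D)J joints and is related to Dntt, was at 27.9 TPM in Abl.2 and at 65.3 and 60.9 TPM in Abl.3 and Abl.4. It was lower in Abl.2 than in Abl.3 (adjusted p = 0.000589) and than in Abl.4 (adjusted p = 0.000891). Wrn, a helicase, was at 7.18, 4.75 and 8.44 TPM, and Hmgb1, a chromatin protein that aids RAG cleavage in vitro, at 2226, 2938 and 3392 TPM.

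Alternative end joining, the route used when the classical one is missing, was represented by 8 genes. Of these 2 were higher and 2 lower in Abl.2 than in Abl.3, 0 higher and 3 lower in Abl.2 than in Abl.4, and 0 higher and 2 lower in Abl.3 than in Abl.4, with median differences of -0.08, -0.17 and -0.19. Over all genes 39.8%, 33.5% and 38.1% were called, and the medians were 0.10, -0.03 and -0.15. The replicative ligase Lig1 was at 230.7, 294.5 and 384.5 TPM in Abl.2, Abl.3 and Abl.4 and differed in all pairs (adjusted p = 0.00039 to 0.00718). Lig3 was at 26.0, 14.3 and 20.9 TPM, and Parp1, a sensor of breaks, at 291.5, 222.1 and 245.5 TPM. Lig4, at 0.98 to 2.27 TPM, was below both other ligases in every library.

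The list of transcription factors known to act on Rag1, Rag2 or Dntt held 16 genes, all tested. In Abl.2, 9 were higher and 3 lower than in Abl.3 (25.9% and 14.0% of all genes), and 4 higher and 6 lower than in Abl.4 (15.0% and 18.4%). In Abl.3, 1 was higher and 9 lower than in Abl.4 (11.3% and 26.8%). Median differences were 0.26, -0.23 and -0.35, beside 0.10, -0.03 and -0.15 over all genes. Pax5, the B-lineage commitment factor, averaged 226.3, 60.1 and 160.6 TPM in Abl.2, Abl.3 and Abl.4, with a mean maternal share of 0.996 in Abl.2. Shares were also one-sided in Abl.2 for Bach2 (0.998), Lef1 (0.0144) and Erg (0.996), the last of these in all lines. Gfi1b, a repressor of Rag transcription, averaged 17.985, 9.13 and 47.4 TPM, and its paralog Gfi1 at 0.91, 13.5 and 0.30 TPM. With 3 clones, no relation between these genes was tested.

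Of 10 constant-region genes of antigen receptor loci, the products of which need V(D)J recombination, 6 were in the table. Ighm, the heavy chain of the early B-lineage receptor, averaged 4408, 2887 and 4556 TPM in the same lines. Igkc, the kappa light chain, was at 290.4, 63.5 and 21.9 TPM and differed in all pairs (adjusted p = 0.000211 to 0.0101). Iglc2 was at 3.72, 1.49 and 1.34 TPM. Trac, Trbc1 and Trbc2 were listed at 0 in every library. Of the 3 genes tested, 3 were higher in Abl.2 than in Abl.3 (25.9% of all genes), 2 were higher in Abl.2 than in Abl.4 (15.0%), and 1 was higher and 1 lower in Abl.3 than in Abl.4 (11.3% and 26.8%).

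The profiles most like those of Rag1, Rag2 and Dntt over the 6 libraries were found by distance between mean-centred log2(TPM + 1) values among 10869 genes. For Rag1 they were Ighv14-2 (distance 0.362, r = 0.985), Pbx3 (0.373, r = 0.991) and Hsh2d (0.383, r = 0.983). For Rag2 they were Samd1 (0.289, r = 0.990), Tmem176a (0.308, r = 0.983) and Gpm6a (0.330, r = 0.972). For Dntt they were Rabgap1l (0.385, r = 0.989), Nrxn2 (0.521, r = 0.980) and Zbtb32 (0.570, r = 0.976). The points of each r are 3 clones with 2 libraries each, so r describes the order of the clones. None of the other 9 members was among the 3 genes most like Rag1, Rag2 or Dntt. With only 3 of 10869 genes kept for each, this absence says little about the members.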

How the data were processed

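RNA-seq of 6 libraries from 3 cell lines was analysed, grouped by the line in the sample titles. Per the file headers, the authors counted reads at SNP positions to give maternal and paternal counts per gene, took TPM with DESeq2, and gave a fraction of maternal counts per line, with replicates averaged and limits of a stated method. The confidence level of those limits, and which parent strain is maternal, are not given in the sources used here. Per the submitters' processing notes, STAR 2.5.4a, SAMtools, GATK and DESeq2 and the builds GRCm38, GRCh37 and mm10 were named, with no role or order. Coordinates are those of the authors' tables and equal GENCODE M21 (GRCm38) for 9 of the 10 genes.

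For abundance, a linear model of log2(TPM + 1) was fitted in limma 3.58.1 (R 4.3.3) with a trended prior, to the 11003 genes averaging 1 TPM or more. Differences are on this scale, on which those of low genes come out too small. Allelic counts were tested with edgeR 4.0.16 (quasi-likelihood), in a design of library intercepts and an allele effect for each line, with 1 library size for both alleles, for 8702 autosomal and X genes with at least 20 counts in each library. P-values were adjusted by Benjamini-Hochberg over all genes tested, with a threshold of 0.05. SEs of allelic log2 ratios were worked back from the fitted size and its F statistic. They are unsafe where an allele had few counts. Intervals are 95% Wilson intervals and, with no molecular identifiers, cover counting error only. Median coverage of the tested genes was 866 to 1350 counts per library, and TPM keep no depth. The scripts were tested on simulated data. DESeq2 1.42.0, other filters, scalings and left-out libraries were alternatives.

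All 10 members are named by rule. From each other list, the 3 genes with the smallest adjusted p were named, and 3 genes for each likeness. The members and lists were chosen with earlier results of these data known. RefSeq promoters were matched by symbol for 9 members.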

Additional observations from a re-analysis of the deposited data

Results flagged for a closer look

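The allelic ratio of a pair of the 10 genes differed between lines by a test of the difference itself (edgeR's quasi-likelihood test, adjusted over 8702 genes). Such a difference was called for 28.4% of all genes in Abl.2 minus Abl.3, 22.3% in Abl.2 minus Abl.4 and 16.5% in Abl.3 minus Abl.4. For Xrcc5 the log2 ratio of maternal to paternal counts differed by 8.95 between Abl.2 and Abl.4 (adjusted p = 1.49e-10) and by 9.36 between Abl.3 and Abl.4 (adjusted p = 2.43e-10), and in each pair all 4 libraries showed the direction. Abl.2 minus Abl.3 was -0.41 for Xrcc5 (adjusted p = 0.0271) and 0.57 for Xrcc6 (adjusted p = 0.00239), with no overlap between the libraries of these lines for either gene. The Xrcc5 call was lost with DESeq2 (adjusted p = 0.121), without Abl.2 replicate 2 (adjusted p = 0.226) and without Abl.3 replicate 2 (adjusted p = 0.162).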

How the results depend on the processing

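A direction was compared across settings only for a gene past the threshold, and by that rule none reversed. The count of members called for abundance between Abl.2 and Abl.3, 5 with all libraries, was 3 without the filter on low values and ranged from 3 to 4 without 1 library, with 3 without Abl.2 replicate 2 or Abl.3 replicate 1. The count of allelic differences between these lines, 2 with all libraries, was 1 with DESeq2. It ranged from 1 to 3 without 1 library, with 1 without Abl.2 replicate 2 or Abl.3 replicate 2. Imbalance calls in Abl.2, 5 with all libraries, ranged from 3 to 5 without 1 library, the lowest without Abl.2 replicate 2. Counts of abundance calls over all genes fell by more than 1.5 times without some libraries. For Abl.2 minus Abl.3 they fell from 4382 to between 2466 and 2811 without a library of either line, for Abl.2 minus Abl.4 from 3682 to 1970 or 2078 without a library of Abl.2, and for Abl.3 minus Abl.4 from 4194 to 2343 or 2370 without a library of Abl.3. Quantile normalisation moved the median of all genes by -0.102 in Abl.2 minus Abl.3 and 0.177 in Abl.3 minus Abl.4, and the share of calls that were higher from 65% to 51.4% and from 29.8% to 52%. With allele totals as library sizes the median allele ratio of Abl.2 moved by -0.119. Neither changed a call of a member. Calls that held under every alternative run were, between lines, Rag1 and Rag2 in both pairs with Abl.3, Dntt in both pairs with Abl.4, Xrcc5 in both pairs with Abl.2, the allelic differences of Xrcc5 from Abl.4 and that of Xrcc6 between Abl.2 and Abl.3. Within lines they were the imbalances of Xrcc5 and Lig4 in all 3 lines, Xrcc6 in Abl.2 and Prkdc in Abl.4. The causes of lost calls were not tested.

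Replicate numbers are those of library preparations. Deviations of same-numbered libraries correlated at 0.104 for Abl.2 with Abl.3, 0.187 for Abl.2 with Abl.4 and 0.161 for Abl.3 with Abl.4, over only 2 numbers. With the replicate block, 5213, 4608 and 5184 genes were called for abundance against 4382, 3682 and 4194. Among the members, the block added Rag2 between Abl.2 and Abl.4 (adjusted p = 0.02) and Prkdc between Abl.3 and Abl.4 (adjusted p = 0.0232), removed the Xrcc6 imbalance in Abl.4 (adjusted p = 0.0614) and changed no other call. With 2 libraries a line, the spread rests on few degrees of freedom, and each line is a single clone.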
